A study of Mus musculus with 18 samples.

Results

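The genes described here encode the proteasome, its activators, its inhibitor and its assembly chaperones. They were all genes with a mouse symbol made of Psm, a letter from a to g and a number, leaving out pseudogenes and the immunoproteasome subunits Psmb8, Psmb9 and Psmb10. Of the 45 symbols in the deposited count table that fit, 43 are among the 15386 genes of the deposited library-scaled table, and these are the members. Psma8 had 0 counts in all 18 libraries and Psmb11 had 23 counts summed over them, so both fell outside. The 43 members comprise 14 subunits of the 20S core, 17 subunits of the 19S cap, 7 assembly chaperones, 4 activators and 1 inhibitor. All 43 passed the filter on low counts and were tested.

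Polyadenylated RNA was sequenced from MPC3, a mouse prostate cancer cell line, in 6 control libraries and in 6 libraries for each of the hairpins shRNF185.1 and shRNF185.3. Control libraries carry plko in their titles, and the other groups are labelled as knockdown of RNF185, a ubiquitin ligase of the endoplasmic reticulum membrane, by short hairpin RNAs. The labels place 2 libraries of each group in each of 3 batches. Nothing in the labels says that libraries of a group came from separate cultures, so p-values measure only the spread between these libraries, which may be technical. The authors had already adjusted the counts for batch, and the main model held no batch term. The spread is therefore what was left after that adjustment, and p-values may be too small.

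The 26S proteasome is the cell's main machine for degrading proteins tagged with ubiquitin. Its 20S core is a barrel of alpha rings, which gate entry, and beta rings, which hold the cutting sites. The 19S cap at the barrel's end binds and deubiquitinates the substrate and unfolds it with a ring of ATPases. The activators are alternative caps, and those encoded by Psme1 and Psme2 form the PA28 complex, which is known to be induced by interferon together with the immunoproteasome subunits. Proteins that RNF185 and other ligases of the endoplasmic reticulum tag with ubiquitin are degraded by the proteasome in the cytosol.

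Total counts ranged from 22027395 to 43379662 per library, and the members took 0.638% to 0.725% of them. No member had fewer than 304 counts in any library. Values per library are the authors' deposited library-scaled values (CPM), with the SD over 6 libraries. Rnf185 lay between 33.6 and 38.4 CPM in control and between 5.19 and 6.80 CPM in both hairpin groups, a log2 fold change of -2.63 with each hairpin, so no library went against its label. Of the markers of prostate epithelium, Krt8, Krt18 and Hoxb13 were present, Pbsn had 0 counts in every library and Epcam at most 7. Cdh1, Krt8 and Krt18 were lower in every hairpin library than in every control library. Krt19 overlapped, at 198 to 868 CPM in control, 117 to 622 with shRNF185.1 and 207 to 352 with shRNF185.3. Hoxb13 and the basal markers Krt14 and Trp63 also overlapped between groups. The mean of Trp63 was higher with the hairpins (4.32 and 4.68 CPM) than in control (2.78). Krt5 had at most 3 counts in a library and Tmprss2 at most 13. Of the mesenchymal markers, Col1a1 was higher in every hairpin library (119.6 CPM or more) than in every control library (109 CPM or less). Pdgfra was above the control range in every shRNF185.3 library only, and Vim and Fn1 overlapped between groups. The part of these markers in the results below was not tested. Of the 6 immune and endothelial markers, Ptprc, Adgre1 and Cdh5 had at most 3 counts in a library, Pecam1 and Kdr at most 11, and Cd68 44 to 145.

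Sequences upstream of members are given for Psme1, Psme2, Psmg4 and Psmd11, each called in a comparison below. That of Psmb5, called in none of the main comparisons, is also given. Psmb4 and Psmd8 were called but are not shown. RefSeq on GRCm38.p6 supplied 39 windows for 36 of the 43 members, each from 250 bases before to 50 bases after a transcription start. The lines show the first 280 bases of a window, 5′ to 3′ on the gene's strand. In Psme1 (chr14:55578244-55578523, plus strand), Psme2 (chr14:55591072-55591351, minus strand) and Psmg4 (chr13:34162714-34162993, plus strand), capitals mark matches to the core of an interferon-stimulated response element, GAAA followed after any 2 bases by GAAA. In Psmd11 (chr11:80428365-80428644, plus strand) capitals mark CCGGAA, the core bound by ETS factors. In Psmb5 (chr14:54617966-54618245, minus strand) they mark TGACNNNGC, the core of the antioxidant response element used by NFE2L1 and NFE2L2, regulators of proteasome genes. Each motif was searched on both strands.
Psme1: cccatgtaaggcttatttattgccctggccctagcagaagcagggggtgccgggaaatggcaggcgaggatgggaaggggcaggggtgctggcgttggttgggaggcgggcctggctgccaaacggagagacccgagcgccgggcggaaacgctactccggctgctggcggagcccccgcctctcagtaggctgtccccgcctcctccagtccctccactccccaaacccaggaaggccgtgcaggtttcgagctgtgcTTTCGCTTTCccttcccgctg
Psme2: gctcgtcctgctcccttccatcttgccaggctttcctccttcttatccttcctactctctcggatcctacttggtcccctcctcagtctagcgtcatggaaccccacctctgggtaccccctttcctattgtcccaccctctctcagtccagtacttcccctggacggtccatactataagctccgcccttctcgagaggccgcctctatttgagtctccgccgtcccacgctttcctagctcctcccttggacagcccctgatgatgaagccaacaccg
Psmg4: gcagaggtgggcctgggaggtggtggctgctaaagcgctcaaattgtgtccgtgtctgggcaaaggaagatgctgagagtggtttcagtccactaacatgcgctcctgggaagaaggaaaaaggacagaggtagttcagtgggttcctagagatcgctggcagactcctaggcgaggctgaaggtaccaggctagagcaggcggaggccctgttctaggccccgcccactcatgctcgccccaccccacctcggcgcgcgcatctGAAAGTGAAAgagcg
Psmd11: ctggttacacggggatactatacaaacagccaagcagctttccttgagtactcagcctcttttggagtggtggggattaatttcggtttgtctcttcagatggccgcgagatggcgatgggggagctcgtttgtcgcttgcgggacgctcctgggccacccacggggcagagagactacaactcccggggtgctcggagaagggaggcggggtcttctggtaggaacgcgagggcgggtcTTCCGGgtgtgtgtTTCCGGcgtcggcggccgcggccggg
Psmb5: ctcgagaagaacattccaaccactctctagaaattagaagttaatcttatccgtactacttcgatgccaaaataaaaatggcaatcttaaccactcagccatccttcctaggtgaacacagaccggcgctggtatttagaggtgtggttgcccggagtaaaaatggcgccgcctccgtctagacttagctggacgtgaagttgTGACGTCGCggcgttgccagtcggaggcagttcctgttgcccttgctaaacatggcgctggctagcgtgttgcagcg

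The ETS core was found in 21 of the members' 39 windows (53.8%), against 14.9% of the 32851 windows of all genes. The antioxidant response element core was found in 6 member windows (15.4%), those of Psmb5, Psmb6, Psmc6, Psmd9, Psmd12 and Psme4, against 12.4% of all windows. The CCAAT box, bound by the NF-Y complex, was in 12 (30.8%) against 37.4%. The interferon element, a motif chosen after the values were seen, was in the windows of Psmb3, Psmd4, Psmd9, Psme1 and Psmg4, 5 in all (12.8%), against 3.44%. The interferon gamma-activated site TTCNNNGAA, chosen in the same way, was in those of Psmd2 and Psmg1 (5.13%), against 8.30%. Psme1 held the interferon element at base 10 after the start and Psmg4 at base 16, and the Psme2 window held none. Psme1 (chr14:55578123-55581529, plus strand) and Psme2 (chr14:55587441-55591113, minus strand) lie 5912 bases apart, as given by GENCODE M21 on GRCm38. These matches are letters in a window and were not tied to binding by any measurement here.

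The control level of each member was compared per kilobase of its principal transcript. The core and cap were expressed far above the typical gene: the median over the 31 subunits of the 20S core and 19S cap was 120 CPM per kb, against 7.99 CPM per kb over all genes tested that have an annotated length. Psma7, an alpha ring subunit, was highest at 267 ± 17.7 CPM per kb (SD, n = 6), followed by the beta ring subunits Psmb4 at 235 ± 12.3 and Psmb3 at 203 ± 15.2. The 3 proteolytic subunits lay close together, with Psmb6 (caspase-like site) at 202 ± 14.6, Psmb5 (chymotrypsin-like site) at 167 ± 11.5 and Psmb7 (trypsin-like site) at 153 ± 11.1 CPM per kb. Among cap subunits the level ran from 44.5 ± 2.82 for Psmd11, a lid scaffold subunit, to 190.1 ± 7.75 for Psmd2, a large docking subunit of the base.

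Chaperones and regulators were lower. The 4 chaperones of the 20S core, Psmg1 to Psmg4, had a median of 24.6 CPM per kb and lay between 23.4 and 28.5. The 3 chaperones of the 19S base, Psmd5, Psmd9 and Psmd10, had a median of 19.04. Psmf1, which encodes the inhibitor PI31, was the lowest member at 10.7 ± 0.514 CPM per kb. The activators spread from 37.2 ± 3.43 for Psme4 (PA200) to 91.9 ± 9.75 for Psme2. Of the 42 gaps between neighbours in this order, 11 exceeded the larger of the neighbours' SDs, so most neighbours did not differ beyond their spread. The principal transcripts of Psma2 and Psma3 are long, 2911 and 2846 bases, and their levels per kb (61.7 ± 3.07 and 43.7 ± 7.84) depend on that choice of transcript.

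**Figure D1:**
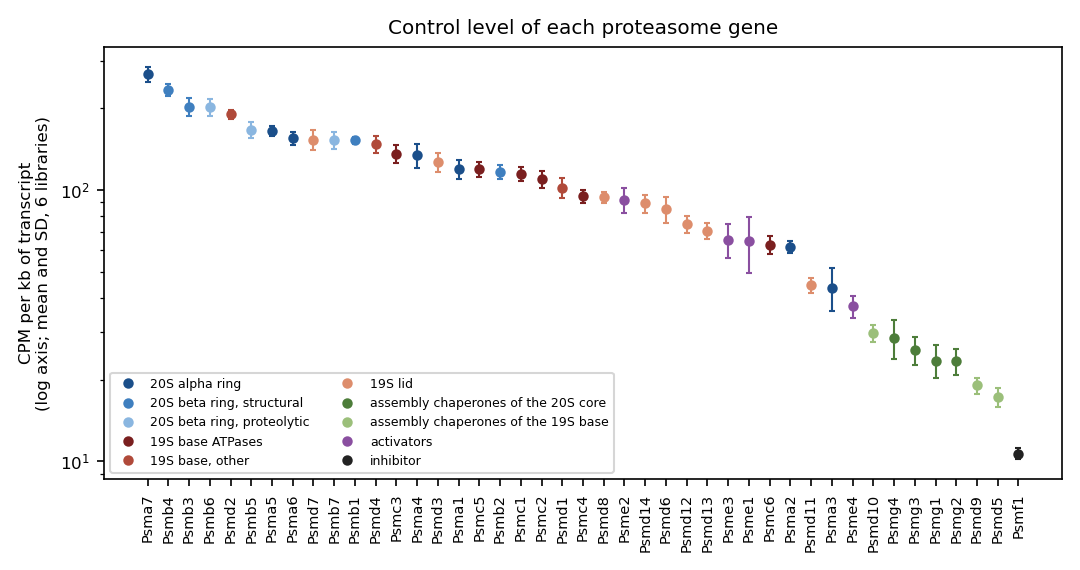
Control level of each of the 43 members in CPM per kb of principal transcript on a log axis, as mean and SD over 6 libraries, ordered from highest to lowest and coloured by role. Core and cap subunits fill most of the left side, from Psma7 at 267 CPM per kb, and the chaperones and Psmf1 at 10.7 lie at the right.

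Few members changed with either hairpin. With shRNF185.1, Psme1 and Psme2 rose and Psmd8 fell, so 3 of 43 members (6.98%) were called at an edgeR adjusted p under 0.05. Of all 14309 genes tested, 28.9% were called, 14.6% higher and 14.3% lower. With shRNF185.3, Psme1, Psme2, Psmb4 and Psmg4 rose and Psmd11 fell, 5 of 43 members (11.6%), against 27.3% of all genes (14.2% higher and 13.1% lower). Psme1 and Psme2 were called in the same direction with both hairpins, 2 of 43 members (4.65%), against 16.1% of all genes. The hairpin groups were compared with the same control libraries. For the mean of both hairpins, Psme1, Psme2 and Psmd8 were called, against 32.9% of all genes.

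The changes of the other members were small. The median log2 fold change over the 43 members was -0.03 with shRNF185.1 and -0.00 with shRNF185.3, against -0.02 over all genes with each. The median size of the change, ignoring its sign, was 0.05 and 0.06 log2 units for members, against 0.16 and 0.15 for all genes. Most members are expressed above the typical gene, and genes of like level were not compared. With shRNF185.1, 41 of 43 members changed by less than 0.25 log2 units, as did 9529 of the 14309 genes tested. For shRNF185.3 the counts were 40 of 43 and 9762 of 14309. Among members not called, the 95% interval lay within 0.25 log2 units of 0 for 35 of 40 with shRNF185.1 and for 34 of 38 with shRNF185.3, and within 0.5 for all of them. The 37 members called neither with a hairpin nor between the hairpins include all 6 ATPases of the cap and all 3 proteolytic subunits. The matching share of all genes is not given here, so this count has no background beside it.

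**Figure D2:**
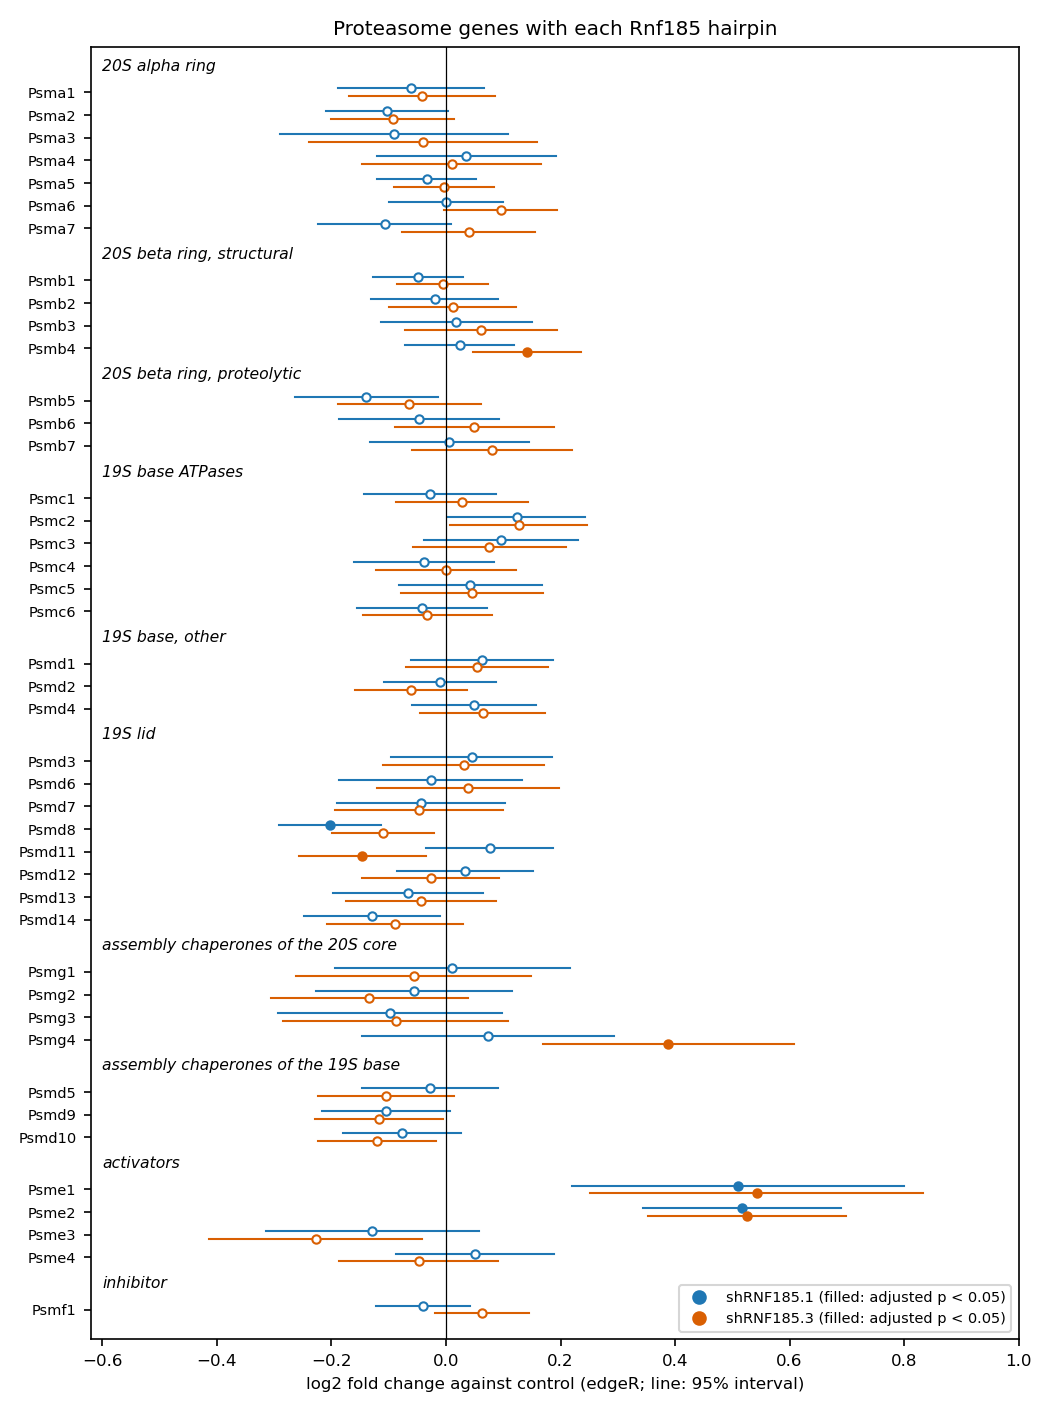
Log2 fold change against control of the 43 members, grouped by role, with the 95% interval, for shRNF185.1 (blue) and shRNF185.3 (orange); filled points passed an adjusted p of 0.05. Psme1 and Psme2 lie at 0.51 to 0.54 with both hairpins, and the points of the core and cap lie within 0.25 of 0.

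In the alpha rings, 0 of 7 subunits were called with either hairpin by edgeR, with 0 at an unadjusted p under 0.05 and 0 called by DESeq2. Of all 14309 genes tested, edgeR called 28.9% with shRNF185.1 and 27.3% with shRNF185.3. At an unadjusted p under 0.05 were 5629 and 5517 genes, and DESeq2 called 4314 and 4137. These backgrounds also apply to the role groups below. The log2 fold changes of the alpha ring subunits ran from -0.11 (Psma7) to 0.04 (Psma4) with shRNF185.1. With shRNF185.3 they ran from -0.09 (Psma2) to 0.10 (Psma6). Psma3 was the most variable of them in control, at 124 ± 22.3 CPM (SD, n = 6). It shares 14.3% of its 75-base windows with other genes, chiefly Gm13835, whose mean count was 51.1% of that of Psma3, so its value is uncertain.

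Of the structural beta subunits, Psmb1, Psmb2 and Psmb3 were not called and Psmb4 was called with shRNF185.3. Psmb4 encodes a beta ring subunit that carries no active site. It lay at a lowest, median and highest of 257, 280.4 and 297 CPM in control, 267, 279 and 308 under shRNF185.1, and 292, 303 and 325 under shRNF185.3. Of the shRNF185.3 libraries 5 lay above the highest control library and the sixth overlapped the control range. By edgeR, shRNF185.3 shifted it by 0.14 log2 units (SE 0.05, adjusted p 0.0255), and the shRNF185.1 value was 0.02 (adjusted p 0.731). The call was lost under 8 of 32 alternatives, with adjusted p up to 0.149, among them leaving out any single batch or control replicate 3 or 5 or shRNF185.3 replicate 4 or 6.

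The proteolytic subunits were not called with either hairpin. Psmb5 lay at 135, 153 and 163 CPM (lowest, median, highest) in control, 124, 136 and 148 under shRNF185.1, and 129, 143 and 156 under shRNF185.3. All 3 ranges overlapped, and its log2 fold changes were -0.14 (95% interval -0.26 to -0.01, edgeR adjusted p 0.0881) and -0.06 (-0.19 to 0.06, adjusted p 0.46). Under 3 of 32 alternatives the shRNF185.1 value was called lower. Adjusted p was 0.0326 without batch 2, 0.0293 with the GC content and length offset, and 0.044 without control replicate 3. It shares 36.8% of its windows with other genes, whose mean counts were at most 0.344% of its own. Psmb6 lay at 146, 163 and 173 CPM in control, 141, 154 and 174 under shRNF185.1, and 144, 174 and 179 under shRNF185.3. Its intervals were -0.19 to 0.09 and -0.09 to 0.19. Psmb7 lay at 157, 181 and 192 CPM in control, 158, 179.5 and 200.3 under shRNF185.1, and 167, 188 and 209.8 under shRNF185.3, with intervals of -0.13 to 0.14 and -0.06 to 0.22.

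In the base of the 19S cap, the ATPases Psmc1 to Psmc6 unfold substrates and drive them into the core. By edgeR 0 of 6 were called with either hairpin, with 1 at an unadjusted p under 0.05 in each comparison and 0 called by DESeq2. Psmc2 was that gene with both, at 0.12 (adjusted p 0.115) and 0.13 (adjusted p 0.106). The other 5 ATPases lay between -0.04 and 0.10. The base subunits Psmd1, Psmd2 and Psmd4, a scaffold, a docking subunit and a ubiquitin receptor, lay between -0.06 and 0.06 with either hairpin, and 0 of 3 were called (0 at an unadjusted p under 0.05, and 0 by DESeq2).

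In the lid, 1 of 8 subunits was called lower with each hairpin, Psmd8 with shRNF185.1 and Psmd11 with shRNF185.3. Of all genes, 14.3% and 13.1% were called lower, shares close to 1 of 8. Psmd8 encodes RPN12, a lid subunit known to join late in assembly. It lay at 134, 146 and 153 CPM (lowest, median, highest) in control, 118, 125 and 136 under shRNF185.1, and 130.4, 133 and 139 under shRNF185.3. With shRNF185.1, 5 of 6 libraries lay below the lowest control library. With shRNF185.3, 4 of 6 did. By edgeR, the shRNF185.1 log2 fold change was -0.20 (SE 0.04, adjusted p 0.00134), and that of shRNF185.3 was -0.11 (adjusted p 0.0639). Under 4 of 32 alternatives the shRNF185.3 value was called lower, with adjusted p of 0.0377 by DESeq2, 0.00681 with the GC content and length offset, 0.00802 with that offset and a replicate block, and 0.0267 without control replicate 5. The difference between the hairpins was 0.09 (adjusted p 0.17). Within batches 1, 2 and 3 the log2 differences from control were -0.15, -0.31 and -0.15 for shRNF185.1, and for shRNF185.3 they were -0.07, -0.18 and -0.08. Of 32 alternatives, leaving out batch 2 ended the call with shRNF185.1, at -0.15 and an adjusted p of 0.0546.

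Psmd11, which encodes the scaffold subunit RPN6, differed between the hairpins. It lay at 114, 128 and 137 CPM in control, 118, 135 and 143 under shRNF185.1, and 107, 114 and 122 under shRNF185.3. Only 3 of the shRNF185.3 libraries lay below the lowest control library, so these groups overlapped. By edgeR, the shRNF185.3 log2 fold change was -0.15 (SE 0.05, adjusted p 0.0486) and that of shRNF185.1 was 0.08 (adjusted p 0.303). Against shRNF185.1, the shRNF185.3 value was -0.22 (SE 0.05, adjusted p 0.00739). The difference between the hairpins was -0.21, -0.25 and -0.21 within batches 1, 2 and 3. Against control the call was lost under 21 of 32 alternatives, 12 of them leaving out 1 library, with adjusted p up to 0.378. Between the hairpins it was lost without batch 1 (adjusted p 0.11) and without batch 2 (adjusted p 0.0545). Psmd11 shares 4.15% of its 75-base windows with 14 other genes. Among them, Rack1 had a mean count 1237% of that of Psmd11 and Tra2b 150%, and the rest at most 66.3% (Dbf4). How far shared reads moved the values of Psmd11 was not tested.

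Psmd14 encodes the deubiquitinase of the lid. It lay at 119, 139.8 and 149 CPM in control, 118, 126 and 134 under shRNF185.1, and 114, 131 and 137 under shRNF185.3, and the ranges overlapped. Its log2 fold changes were -0.13 (95% interval -0.25 to -0.01, edgeR adjusted p 0.095) and -0.09 (-0.21 to 0.03, adjusted p 0.263). Without batch 2 both values were called lower (adjusted p 0.0145 and 0.0267), and without control replicate 3 that of shRNF185.1 was (0.0216). Psmd3, Psmd6, Psmd7, Psmd12 and Psmd13, the other 5 lid subunits, lay between -0.07 and 0.04 and were not called.

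**Figure D3:**
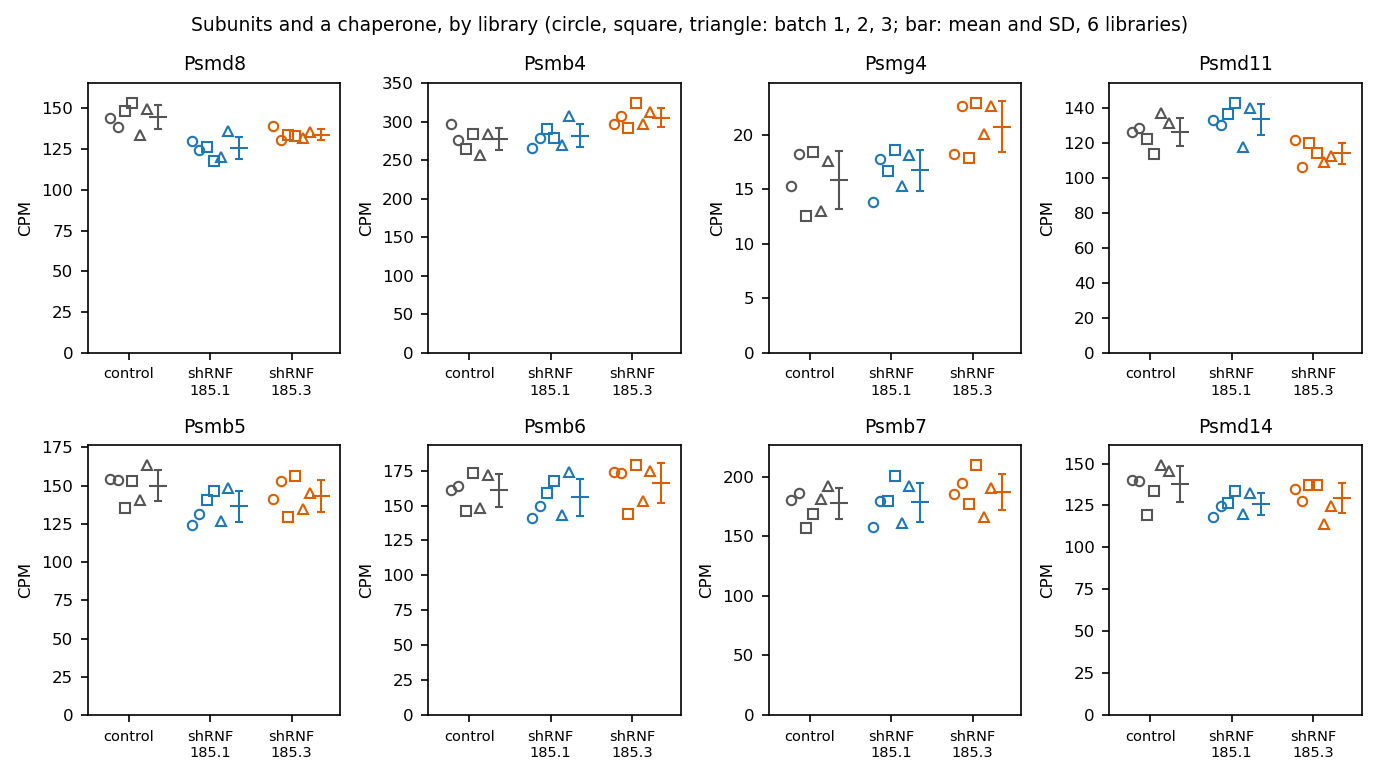
CPM in each library of Psmd8, Psmb4, Psmg4, Psmd11, Psmb5, Psmb6, Psmb7 and Psmd14, with circles, squares and triangles for batches 1, 2 and 3 and a bar for the mean and SD of 6 libraries. In each panel the hairpin groups overlap the control range, and the largest shift is that of Psmg4 with shRNF185.3, from a control median of 16.4 to 21.3 CPM.

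Of all genes, 28.9% were called with shRNF185.1 and 27.3% with shRNF185.3. Among the 4 chaperones that assemble the 20S core, only Psmg4 was called against control, with shRNF185.3. It lay at 12.6, 16.4 and 18.4 CPM (lowest, median, highest) in control, 13.9, 17.2 and 18.6 under shRNF185.1, and 17.9, 21.3 and 22.9 under shRNF185.3. Of the shRNF185.3 libraries 4 lay above the highest control library, and replicates 1 and 3 lay within the control range. By edgeR, the shRNF185.3 log2 fold change was 0.39 (SE 0.10, adjusted p 0.00917) and that of shRNF185.1 was 0.07 (adjusted p 0.642). Within batches 1, 2 and 3 it was 0.29, 0.41 and 0.49 with shRNF185.3. Leaving out batch 3 ended the call (0.34, adjusted p 0.101). The difference between the hairpins was 0.32 (adjusted p 0.0498) and its call was lost under 19 of 32 alternatives, 12 of them leaving out 1 library, with adjusted p up to 0.272.

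Psmg1, Psmg2 and Psmg3 were not called, at -0.10 to 0.01 with shRNF185.1 and -0.13 to -0.06 with shRNF185.3. Their intervals were among the widest, reaching from -0.29 to 0.22 with shRNF185.1 and from -0.31 to 0.15 with shRNF185.3. The chaperones of the 19S base, Psmd5, Psmd9 and Psmd10, lay between -0.11 and -0.03 with shRNF185.1 and between -0.12 and -0.10 with shRNF185.3. By edgeR 0 of these 3 were called with either hairpin, with 0 and 2 at an unadjusted p under 0.05, and 0 were called by DESeq2.

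Psme1 and Psme2 held the 2 largest log2 fold changes of the 43 members with each hairpin. Psme1 lay at 45.8, 79.4 and 86.0 CPM (lowest, median, highest) in control, 89.8, 98.7 and 122 under shRNF185.1, and 85.6, 103 and 123 under shRNF185.3. All 6 libraries of shRNF185.1 and 5 of 6 of shRNF185.3 lay above the highest control library. For shRNF185.1 edgeR gave a log2 fold change of 0.51 (SE 0.14, adjusted p 0.00894), a fold of 1.42 (95% interval 1.16 to 1.74). For shRNF185.3 it gave 0.54 (SE 0.14, adjusted p 0.00652), a fold of 1.46 (1.19 to 1.78). The 2 control libraries of batch 3, at 56.1 and 45.8 CPM, were the lowest of all 18. Within batches 1, 2 and 3 the log2 difference was 0.21, 0.20 and 1.21 for shRNF185.1, and 0.05, 0.38 and 1.27 for shRNF185.3. Leaving out batch 3 ended the shRNF185.1 call (0.21, adjusted p 0.0522), and the shRNF185.3 value was 0.22 and still called. Summing the pair of libraries of a group within a batch ended both calls (adjusted p 0.0977 and 0.0831).

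Psme2, the partner of Psme1 in PA28, rose with both hairpins. It lay at 76.8, 91.7 and 99.2 CPM in control, 114, 124 and 151 under shRNF185.1, and 109, 133 and 137 under shRNF185.3. Every hairpin library lay above every control library. For shRNF185.1 edgeR gave 0.52 (SE 0.08, adjusted p 0.000112), a fold of 1.43 (95% interval 1.27 to 1.61). For shRNF185.3 it gave 0.53 (SE 0.08, adjusted p 9.96e-05), a fold of 1.44 (1.28 to 1.62). Within batches it was 0.44, 0.32 and 0.79 for shRNF185.1, and 0.22, 0.54 and 0.82 for shRNF185.3. Both calls held under all 33 alternatives, with adjusted p at most 0.00909 and 0.00913. Psme2 shares 22.9% of its 75-base windows with Psme2b, which was also called higher (0.42 and 0.55) and whose mean count was 6.52% of that of Psme2. One of the alternatives summed the counts of both genes.

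Groups that did not overlap in CPM were rare among members. With shRNF185.1 they were Psme1 and Psme2, 2 of 43, against 12.8% of all genes. With shRNF185.3 it was Psme2, 1 of 43, against 13.3%.

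Psme3 encodes PA28 gamma, a nuclear activator, and Psme4 encodes PA200. Psme3 lay at 143, 176 and 198 CPM in control, 137, 163 and 181 under shRNF185.1, and 129, 148 and 162 under shRNF185.3. Its log2 fold changes were -0.13 (95% interval -0.31 to 0.06, edgeR adjusted p 0.296) and -0.23 (-0.41 to -0.04, adjusted p 0.0641). Under 4 of 32 alternatives the shRNF185.3 value was called lower, with adjusted p from 0.0122 (without batch 2) to 0.0442 (without control replicate 3). The shRNF185.1 value was called lower under 1, without batch 2 (adjusted p 0.0193). Batches differed, with -0.21, 0.25 and -0.40 for shRNF185.1 and -0.19, 0.05 and -0.53 for shRNF185.3. Psme4 lay at 212, 239 and 279 CPM in control, 219.9, 254 and 274 in the shRNF185.1 group and 222, 225 and 269 in the shRNF185.3 group. Its log2 fold changes were 0.05 and -0.05. The inhibitor Psmf1 lay at 37.5, 40.4 and 42.8 CPM in control, 38.1, 39.2 and 41.4 in the shRNF185.1 group and 40.9, 42.4 and 43.9 in the shRNF185.3 group. Its log2 fold changes were -0.04 and 0.06. The ranges of Psme3, Psme4 and Psmf1 overlapped between groups.

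**Figure D4:**
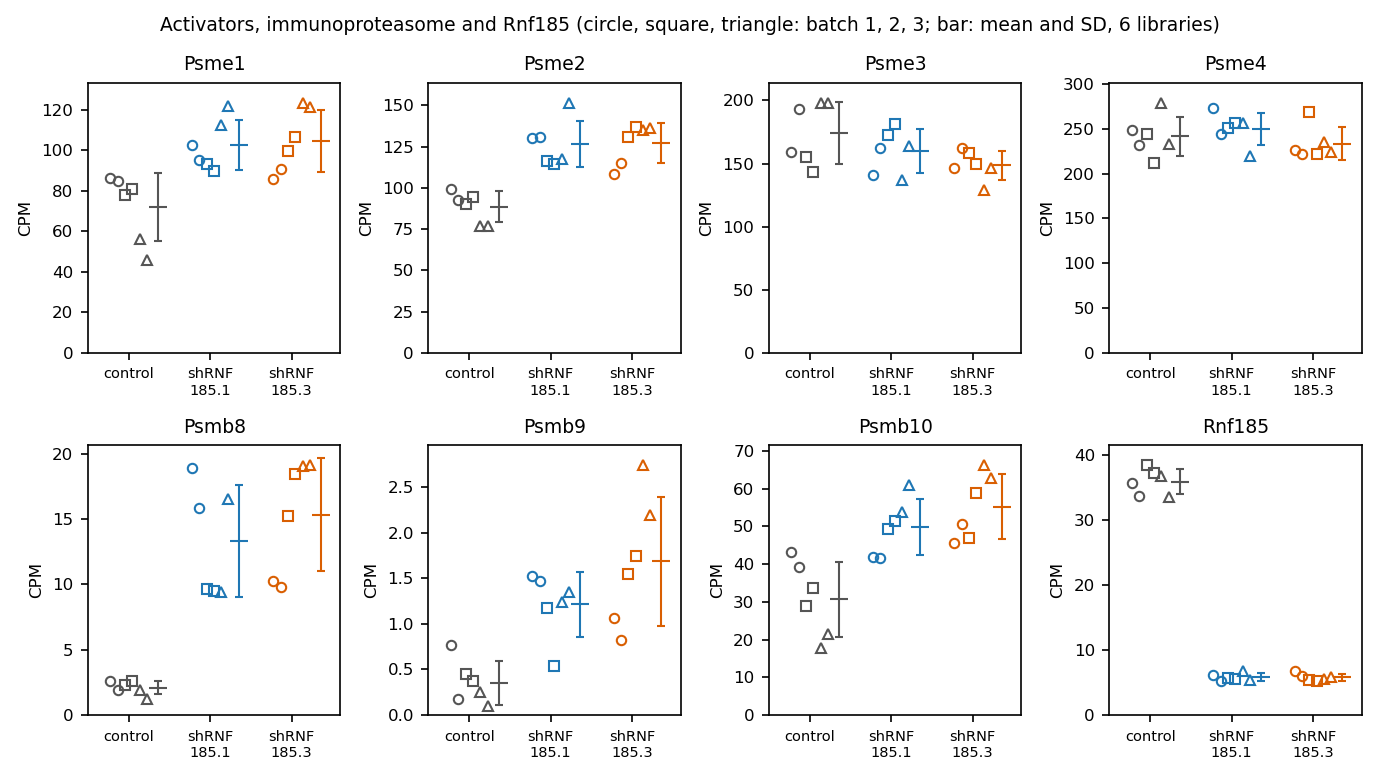
CPM in each library of the 4 activators, the 3 immunoproteasome subunits and Rnf185, with circles, squares and triangles for batches 1, 2 and 3 and a bar for the mean and SD of 6 libraries. All hairpin libraries of Psme2 and Psmb8 lie above all control libraries, and the 2 batch 3 controls are the lowest for Psme1 and Psmb10.

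The immunoproteasome subunits, left out of the members by rule, replace Psmb5, Psmb6 and Psmb7 in cells exposed to interferon. All 3 were called higher with both hairpins, against 16.1% of all genes called in the same direction with both. The shRNF185.1 call of Psmb10 was lost without batch 3 (0.34, edgeR adjusted p 0.067) and with the pair of libraries in a batch summed (adjusted p 0.0756). Psmb8 rose from a control median of 2.09 CPM to 12.7 with shRNF185.1 and 16.9 with shRNF185.3, and Psmb10 from 31.2 to 50.4 and 54.7. Within batches 1, 2 and 3 the log2 difference of Psmb10 was 0.02, 0.69 and 1.56 for shRNF185.1. For shRNF185.3 it was 0.22, 0.76 and 1.73. The log2 fold changes were 2.66 and 2.87 for Psmb8, 1.78 and 2.25 for Psmb9, and 0.70 and 0.85 for Psmb10. Psmb9 was low, at 0.0941 to 0.764 CPM in control, 0.543 to 1.52 with shRNF185.1 and 0.822 to 2.74 with shRNF185.3. Its control range reached the floor of 3 counts (0.0692 to 0.136 CPM), so the size of its change is uncertain. Of the shRNF185.1 libraries, 5 lay above the highest control library. Its calls held under all 32 alternatives, with log2 fold changes as low as 0.71 and 0.97. Of the immune markers, Ptprc and Adgre1 had at most 3 counts in a library and Cd68 had 44 to 145. Whether other cells contributed to these values was not tested.

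Between the hairpins, 2 of 43 members were called (4.65%), Psmg4 higher and Psmd11 lower with shRNF185.3. Of all genes 14.7% were called, 7.72% higher and 6.94% lower. For the 41 members not called, the 95% interval of the difference lay within 0.25 log2 units of 0 for 36 and within 0.5 for all.

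The members' summed level hardly moved. It was 6813 ± 299.8 CPM in control, 6820 ± 431 in the shRNF185.1 group and 6869 ± 222 in the shRNF185.3 group (SD over 6 libraries). The 20S core sum ranged from 2292 to 2634 CPM in control, 2248 to 2616 with shRNF185.1 and 2381 to 2688 with shRNF185.3. The sum of the 19S subunits ranged from 3210 to 3623, from 3141 to 3750 and from 3206 to 3529 CPM. The groups overlapped in each sum. In bulk RNA, a different number of cells and a different amount of RNA per cell cannot be told apart. The median coefficient of variation between replicates was lower for members than over all genes. It was 7.24% against 11.8% in control, 7.67% against 10.7% with shRNF185.1, and 5.90% against 8.90% with shRNF185.3. This measure depends on level, and genes of like level were not compared.

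The members' position relative to control differed between batches. Relative to control libraries of the same batch, the median log2 difference of the members was -0.12, 0.18 and -0.08 with shRNF185.1 in batches 1, 2 and 3, and 0.00, 0.09 and -0.10 with shRNF185.3. In batch 1, 6 of 43 members were above 0 for shRNF185.1 and 22 for shRNF185.3. In batch 2 it was 36 and 34. In batch 3 it was 10 and 11. Over all genes these medians lay between -0.02 and -0.00. In control replicate 3 of batch 2 the members' median was 0.12 log2 units below the control mean (-0.12), the lowest control library, and in control replicate 6 of batch 3 it was 0.08, the highest. Without batch 2, 8 members were called with shRNF185.1, Psme1 and Psme2 higher and Psma1, Psma2, Psmb5, Psmd7, Psmd14 and Psme3 lower. The share of all genes called without batch 2 is not given here, so this count has no background beside it.

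**Figure D5:**
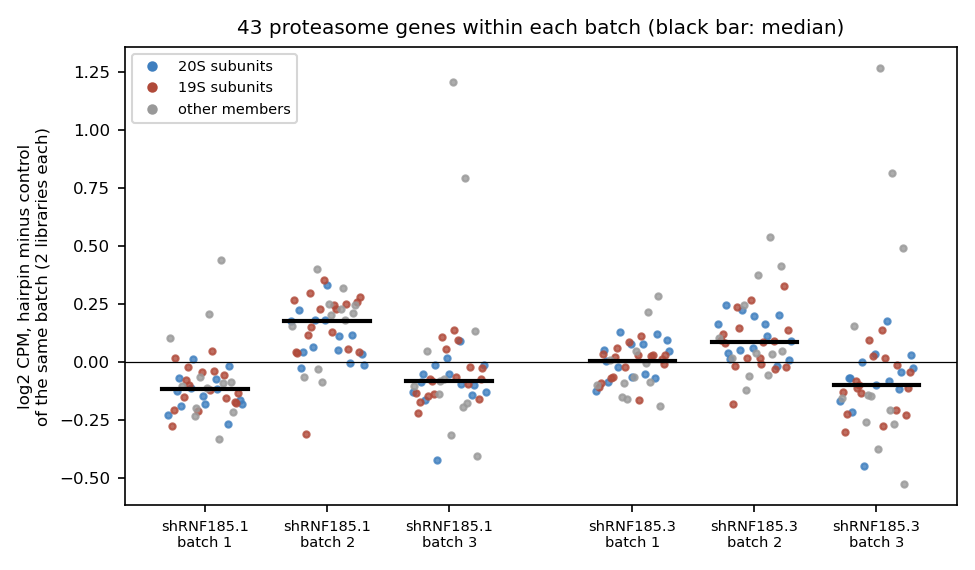
Log2 CPM of each of the 43 members in the 2 libraries of a hairpin minus that in the 2 control libraries of the same batch, for each hairpin and batch, with a black bar at the median. The medians run from -0.12 in batch 1 to 0.18 in batch 2 with shRNF185.1, and the grey points highest in batch 3 are Psme1 and Psme2.

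The genes around the proteasome were read from lists of parts not covered by the symbol rule. Over all genes, 28.9% were called with shRNF185.1 and 27.3% with shRNF185.3. Of 10 further parts and assembly factors tested, 1 was called, and with both hairpins. This was Ube3c, a ubiquitin ligase that extends chains on proteasome-bound substrates, at 0.47 and 0.27. Its shRNF185.3 call was lost under 3 of 32 alternatives, with adjusted p up to 0.153 (without batch 2). Adrm1, Sem1, Uchl5, Usp14, Pomp, Ecpas, Akirin2, Txnl1 and Fbxo7 were not called with either. Of 10 shuttles and segregase genes described here, Zfand2a, which is induced by proteotoxic stress, was called higher with both hairpins (0.27 and 0.36). Its calls were lost under 18 and 2 of 32 alternatives, with adjusted p up to 0.349 and 0.0774. The ubiquitin shuttle Ubqln1 was called lower with shRNF185.3 (-0.22), a call lost without batch 3 (adjusted p 0.0607).

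Regulators of proteasome genes were read from a list of 7, of which Nfe2l3 was too low to test. Nfe2l1, whose product raises proteasome gene transcription when proteasome activity is low, was called higher with both hairpins (0.29 and 0.27). Nfe2l2 was called higher with shRNF185.1 (0.20) and lower with shRNF185.3 (-0.18). Ngly1, whose enzyme is needed to activate NFE2L1, was called higher with shRNF185.1 (0.26). Nfya, a subunit of the CCAAT box factor, was called lower with both (-0.32 and -0.35), and Nfyb with shRNF185.1 (-0.19). In all, 5 of the 6 tested were called for shRNF185.1, against 28.9% of all genes, and 3 for shRNF185.3, against 27.3%. Several of these calls were lost when 1 batch was left out. For Nfe2l1 that was batch 3 in the shRNF185.1 comparison (adjusted p 0.0541), and batch 1 or batch 3 in the shRNF185.3 comparison (0.0569 and 0.121). Without batch 1 the shRNF185.1 calls of Nfe2l2 (0.0589) and Ngly1 (0.225) were lost. The Nfyb call was lost without batch 2 (0.109), without batch 3 (0.0769) and with the offset for GC content and length (0.113). Among 4 ubiquitin genes and activating enzymes described here, Rps27a (-0.18) and Uba6 (-0.57) were called lower with shRNF185.1, and Rps27a was called lower with shRNF185.3 (-0.20). The Rps27a calls were lost under 16 and 6 of 32 alternatives, with adjusted p up to 0.352 and 0.175.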

How the data were processed

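RNA-seq libraries of 3 groups of 6 were analysed from tables of the whole series. The submitters' processing notes name cutadapt 2.3, STAR 2.7.0d, RSEM 1.3.1 and the build mm10. The annotation, the counting strand and the settings of ComBat-Seq, a batch adjustment named in the table titles, are not given in the sources used here. The values the authors deposited as counts are expected counts, since 0.466% are not whole. The design had assumed whole counts, so they were rounded and the test was kept. The deposited CPM are a scaled signal, because their sums run from 969986 to 1026394, and the authors' table holds genes with at least 90 counts summed. Symbols were matched to 99.1% of identifiers, and positions are from GENCODE M21 on GRCm38.

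Genes were kept by filterByExpr (minimum count 10), scaled by TMM and fitted over all 18 libraries with a mean per group in edgeR 4.0.16 (R 4.3.3). Quasi-likelihood F tests were adjusted by Benjamini-Hochberg over 14309 genes and called under 0.05. Standard errors and 95% intervals came from the same fit. Alternatives used DESeq2 1.42.0, limma 3.58.1 (log2 of CPM plus 1), other scalings and filters, covariates, and batches or single libraries left out. The scripts were tested on simulated counts. A floor of 3 counts is 0.0692 to 0.136 CPM, covering counting error only. Libraries of a group differed by a chi-square of 7.64 to 84.4 per gene over 45 pairs, so none was counted as a duplicate.

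Members, roles, lists and motifs were chosen with earlier results of these data known. Members named in full were those called with both hairpins, up to 4 called in each direction with each hairpin, those called between hairpins, and Psmb5, Psmb6, Psmb7, Psmd14, Psme1 to Psme4 and Psmf1. From the other lists, called genes were named, up to 4 in each direction. Windows of 75 bases shared with other genes' transcripts show where reads could be split. Paaf1 was not matched by symbol and is not analysed here, and some genes of the lists are not reported here.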

Additional observations from a re-analysis of the deposited data

Results flagged for a closer look

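Among 84 groups of 6 libraries, for the members and list genes named, 4 had 1 library far from the rest (Dixon's test at the 95% level), where chance would give 4.20. Psme4 was 269 CPM in shRNF185.3 replicate 3, and the next library was at 235. Psmb9 was 0.543 CPM in shRNF185.1 replicate 4, below the next at 1.17. Nfya was 90.4 CPM in shRNF185.3 replicate 2, above the next at 83.5. Uba6 was 58.4 CPM in control replicate 5, above the next at 45.7.

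In 5 of the 28 named genes the hairpins differed from each other, with edgeR adjusted p under 0.05 for shRNF185.3 against shRNF185.1. The members among them were Psmg4, at 0.32 log2 units, and Psmd11, at -0.22. The others were Ubqln1 at -0.15, Nfe2l2 at -0.38 and Uba6 at 0.40. Of all genes, 14.7% were called in this comparison, and a call in it was itself a reason to name a member. Of 32 alternatives, the call was lost under 19 for Psmg4, 17 for Ubqln1, 2 for Psmd11, 1 for Uba6 and 0 for Nfe2l2. Nfe2l2 was called in opposite directions with the hairpins, against the same control libraries.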

How the results depend on the processing

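Counts of called members kept within 1.5 times the reported value except as follows. With shRNF185.1 (3 members) the count was 8 without batch 2 and 7 with an offset for GC content and length, and 3 to 5 with single libraries left out (5 without control replicate 3). With shRNF185.3 (5) it was 3 with no filter on low counts, without batch 1, without batch 3 and with libraries of a group and batch summed, 9 with the GC offset, and 3 to 6 with single libraries left out (3 without shRNF185.3 replicate 4 or 6). For the mean of both hairpins (3) it was 6 with library size alone, 5 with DESeq2, 9 without batch 2, 10 with the GC offset and 3 to 6 with single libraries left out (5 without control replicate 2 or 4 or shRNF185.1 replicate 1, and 6 without control replicate 3). Between the hairpins (2) it was 1 with DESeq2 size factors, limma on CPM, no filter, a batch covariate or without batch 3, 6 with the GC offset, and 1 to 3 with single libraries left out. It was 0 by edgeR without batch 1 and 0 without batch 2, with 1 and 3 members at an unadjusted p under 0.05. Replicate numbers were not shown to pair libraries. Same-numbered libraries of different groups had a mean correlation of -0.0144 over 18 pairs, 4 of them over 0.1. In all, 0 libraries correlated best with their own number in both of the other groups. Libraries of different groups in the same batch but with other numbers had a mean correlation of -0.434 over 18 pairs. A replicate block in the model gave 3, 4, 5 and 3 called members, in the order above, and the block and the GC offset together gave 4, 8, 6 and 5. Over the 28 named genes, 3361 of 3588 values under an alternative stayed on their side of the threshold, 162 lost a call and 65 gained one. None of the called values changed sign, and 84 uncalled ones did. The cause of these moves was not tested. Shares of all genes called under the alternatives are not given here, so these counts of members have no background beside them.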
